A study of Oryza sativa Japonica Group with 8 samples.

Results

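Short transcribed loci of rice are described here: assembled stretches of fewer than 500 base pairs (bp) from which poly(A) RNA was read. Members were the loci whose position occurred in 1 row of the deposited table and whose span, end minus start plus 1, was below 500 bp. There were 582 of them, which is 1.87% of the 31187 loci of the table and 2.79% of the 20892 loci with a position of their own. Their spans ran from 108 to 499 bp with a median of 322 bp. They were set against the 12912 loci of 1000 to 5000 bp with a position of their own, called the longer loci below, whose median span was 2815 bp.

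Assembled loci of this size can be short protein-coding genes, such as those of small storage proteins or secreted peptides, precursors of small RNAs, or pieces of a longer transcript that the reads did not join. Grain filling at the milk stage is the time when the cereal endosperm makes starch and storage proteins, and the mature seed is dry and holds stored RNA. The table gives assembly identifiers with no gene names. The RefSeq gene table at hand does not use such identifiers, so whether a locus is an annotated gene could not be looked up. No gene name, role or sequence is given for a locus. Per the file headers, positions follow Release 7 of the MSU Rice Genome Annotation Project, and the table places no locus in an exon, intron or UTR.

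The 8 libraries came from untreated plants of Oryza sativa ssp. japonica grown in a greenhouse. They were made from flower buds, flowers of the flowering day, flag leaves and roots of a before- and an after-flowering stage, milk grains and mature seeds. Each before-flowering library mixed stages from panicle initiation up to the day before flowering, and each after-flowering library mixed later stages. Each group held 1 library, so no value has a replicate error, no test between groups was possible, and every comparison is between those libraries. Values are FPKM, which counts fragments per kilobase and scales them to the mapped fragments of a library. Their sums were 569819 to 611306 per library and read depth is unknown. The library labelled roots sampled after flowering resembled leaves: among all loci 44 of 13837 with at least 5 FPKM in either library differed 4-fold from leaves after flowering, and among the short loci 3 of 48. Against roots before flowering, 46 of 72 short loci differed 4-fold. Organ counts below are therefore given without that library.

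Short loci were mostly weak. The median over loci of the highest value in any library was 2.52 FPKM (95% binomial interval 2.35 to 2.90), against 14.2 FPKM (13.7 to 14.9) for the longer loci. All intervals here count loci, which are not replicates, and cover the number of loci only. The table lists no locus whose highest value is 1 FPKM or less, and 216 of the 582 short loci had a highest value below 2 FPKM. At least 10 FPKM in some library was reached by 114 short loci (19.6%) and by 58.2% of the longer loci. At least 100 FPKM was reached by 21 (3.61%) and by 12.2%. A value listed at 0 in 1 or more libraries occurred for 403 short loci (69.2%) and for 13.1% of the longer loci. An exact 0 in this table can be a failed estimate, so it is called listed at 0.

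Level depended on length within the short loci themselves. The 22 loci below 150 bp had a median highest value of 43.9 FPKM, and all 22 reached 10 FPKM. The 53 loci from 150 to below 200 bp had a median of 5.50 FPKM. The medians were 2.09 FPKM for the 184 loci from 200 to below 300 bp, 2.43 FPKM for the 143 from 300 to below 400 bp and 2.34 FPKM for the 180 from 400 to below 500 bp. Beyond the limit the median rose again, to 6.52 FPKM for 1660 loci from 500 to below 1000 bp. Of the 21 short loci with at least 100 FPKM, 11 were among the 75 loci below 200 bp.

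The smallest value that was listed above 0 moved the same way. Below 150 bp it was between 1.09 FPKM in milk grains and 2.27 FPKM in flower buds, depending on the library, so at these lengths every value above 0 was also above 1 FPKM. From 150 to below 200 bp the smallest values were 0.0216 to 0.315 FPKM, and from 400 to below 500 bp 0.00173 to 0.0156 FPKM. Pairs of short loci of equal length had the same value, within 0.1%, in 34 of 2112 cases where both were above 0 in a library, or 1.61%, leaving out pairs that were alike in every library. For pairs that differed in length by up to 10 bp this was so in 13 of 32542 cases, or 0.0399%. The equal values had a median of 0.293 FPKM. The part of this length-bound step in the high levels of the shortest loci was not tested, and counts are given below with and without the 75 loci below 200 bp.

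**Figure D1:**
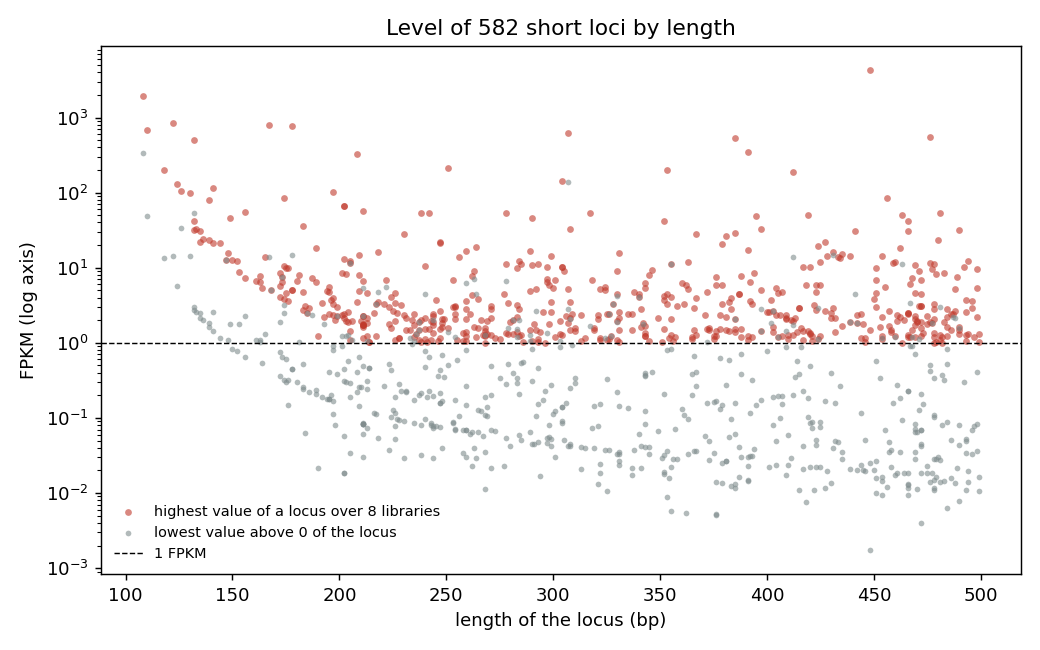
Highest value over the 8 libraries (red) and lowest value above 0 (grey) of each of the 582 short loci, in FPKM on a log axis, against the length of the locus in bp; the dashed line is 1 FPKM. Both rise steeply below 200 bp, and below 150 bp no grey point lies under 1.09 FPKM.

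Just inside the limit, the 19 loci of 490 to 499 bp had highest values of 1.04 to 31.7 FPKM with a median of 2.18 FPKM. Just outside it, the 13 loci of 501 to 509 bp had 1.12 to 13.7 FPKM with a median of 1.43 FPKM. Both sets held 0 loci with at least 1 FPKM in all 8 libraries.

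Buds and flowers held the most short loci. At least 1 FPKM was seen for 269 short loci (46.2%) in flower buds and for 266 (45.7%) in flowers. In the other 6 libraries the count lay between 125 in each of the leaf libraries (21.5%) and 153 in milk grains (26.3%), with 138 in mature seeds, 135 in the library labelled roots sampled after flowering and 141 in the earlier root library. The longer loci also had their highest shares in buds (77.9%) and flowers (76.2%) and their lowest in milk grains (57.3%). Median levels of the short loci were 0.834 FPKM in buds and 0.781 FPKM in flowers, and 0.0165 FPKM in leaves before flowering to 0.152 FPKM in mature seeds for the rest. Buds and flowers were also the libraries with the fewest values listed at 0 over all loci of the table (2.97% and 2.53%, against 3.77% to 7.51% elsewhere). The part of this in the counts was not tested. Without the loci below 200 bp the shares were 44.6% in buds, 44.4% in flowers and 16.6% to 22.1% in the other 6 libraries.

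**Figure D2:**
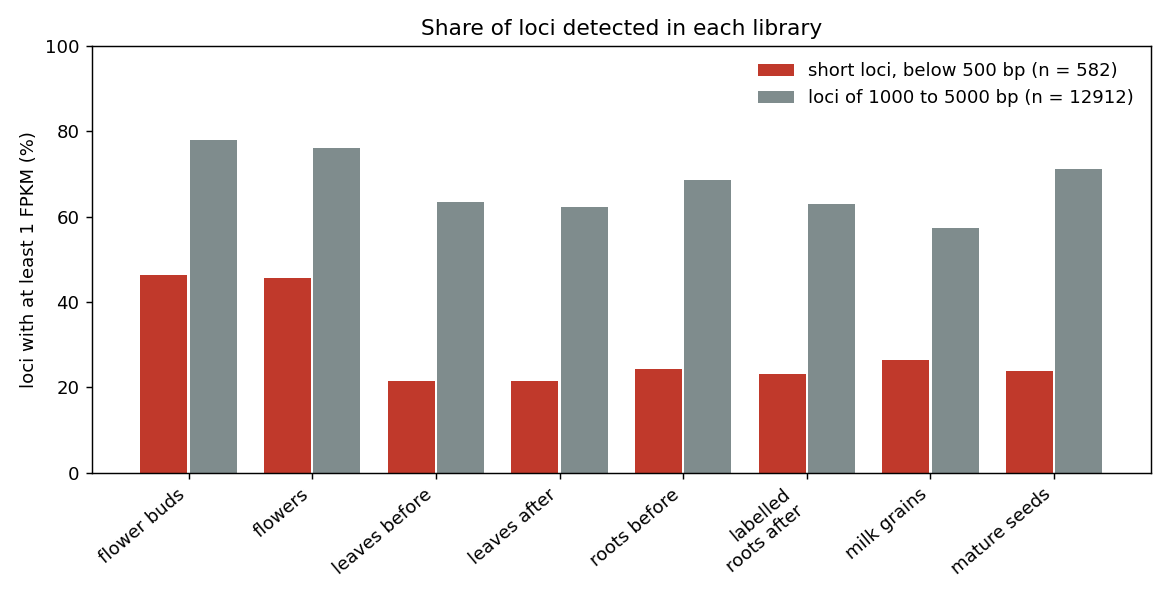
Share of loci with at least 1 FPKM in each library, for the 582 short loci (red) and the 12912 longer loci (grey). Short loci reach 46.2% and 45.7% in buds and flowers and 21.5% to 26.3% in the other libraries.

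Most short loci were detected in few libraries. A value listed at 0 counts as below 1 FPKM here, though it can be a failed estimate. Of the 114 short loci with at least 10 FPKM in some library, 60 were listed at 0 in another. The part of such zeros in the counts was not tested. The shares here and in the patterns that follow were not matched for level. Every locus of the table exceeds 1 FPKM in some library, so a weak one can enter by 1 library alone. Exactly 1 library had at least 1 FPKM for 262 short loci (45.0%, interval 41.0 to 49.1%), against 13.3% (12.7 to 13.9%) of the longer loci and 13.1% of all loci. All 8 libraries did for 24 short loci (4.12%, 2.79 to 6.06%), against 41.9% (41.0 to 42.7%) of the longer loci and 42.4% of all loci. Counted by organ, 416 short loci (71.5%) reached 1 FPKM in 1 of the 4 organs and 38 (6.53%) in all 4, where the longer loci gave 22.8% and 51.3%. Of the 416 loci of 1 organ, 199 were of the flower (47.8%), 107 of the seed (25.7%), 60 of the root (14.4%) and 50 of the leaf (12.0%). Of the 2941 longer loci of 1 organ, the shares were 36.0%, 25.8%, 24.1% and 14.1%.

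The commonest single pattern was detection in buds and flowers together and nowhere else, at 111 short loci (19.1%), against 5.72% of the longer loci. Detection in roots before flowering alone followed with 60 loci (10.3%, longer loci 5.41%), and in milk grains alone with 52 (8.93%, longer loci 1.83%). Flowers alone held 45 (7.73%, longer loci 0.666%), buds alone 43 (7.39%, longer loci 1.73%) and mature seeds alone 36 (6.19%, longer loci 2.43%). Both seed libraries together held 15 (2.58%, longer loci 1.56%). The leaf pattern appeared as both leaf libraries plus the library labelled roots sampled after flowering, at 23 loci (3.95%, longer loci 1.32%).

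Breadth moves with level, so it was also read at equal highest values. A locus can enter a range by 1 library alone, and an equal FPKM stands for fewer fragments on a shorter locus. These ranges are thus no test of whether short loci differ in breadth from the longer loci. Among loci whose highest value was 5 to 20 FPKM, 10 of 123 short loci (8.13%, 4.48 to 14.3%) and 42.6% of the longer loci reached 1 FPKM in all 8 libraries. From 20 to 100 FPKM these were 8 of 44 short loci (18.2%, 9.51 to 32.0%) and 63.5%. At 100 FPKM or more they were 6 of 21 short loci (28.6%, 13.8 to 49.96%) and 68.7%. Detection in exactly 1 library stood at 23.6%, 20.5% and 4.76% of the short loci in these 3 ranges, and at 7.05%, 2.95% and 2.02% of the longer loci. Below 2 FPKM no locus of either set was found in all 8 libraries, and from 2 to 5 FPKM 0 of 178 short loci were, against 8.45% of the longer loci. Below 2 FPKM, 153 of 216 short loci (70.8%) and 61.5% of the longer loci were found in exactly 1 library. From 2 to 5 FPKM these were 70 of 178 short loci (39.3%) and 20.1% of the longer loci. At equal level the sets were thus closer than over all loci in the lowest range.

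Among the 24 short loci found everywhere, 13 were below 200 bp, and their median length was 184 bp. Without the loci below 200 bp, 11 of 507 (2.17%) were found in all 8 libraries and 245 (48.3%) in exactly 1. Above the limit the share found everywhere rose with length, to 14.5% from 500 to below 1000 bp, 21.4% from 1000 to below 2000 bp and 49.8% from 2000 to 5000 bp.

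**Figure D3:**
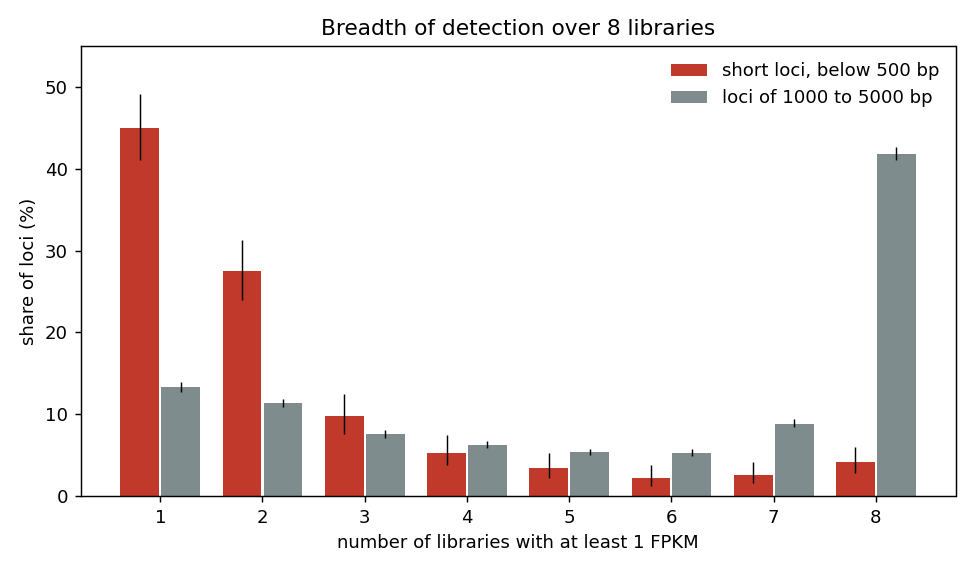
Share of loci (%) by the number of libraries with at least 1 FPKM, for the short loci (red) and the longer loci (grey); lines are 95% Wilson intervals over loci. Short loci peak at 1 library (45.0%) and longer loci at 8 libraries (41.9%).

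At least 10 FPKM in every library was found for 6 short loci, and the 3 with the smallest ratio of highest to lowest value are given. XLOC_052751 (chromosome 6, 24609485 to 24609610, 126 bp) held 33.6 FPKM in milk grains, its lowest value, 39.7 and 79.6 FPKM in the earlier and later leaf library, and 60.7 FPKM in mature seeds. Buds had 106 FPKM, flowers 90.4, roots before flowering 89.1 and the library labelled roots sampled after flowering 69.9. Its highest value was 3.16 times its lowest. XLOC_041159 (chromosome 4, 16435027 to 16435333, 307 bp) was highest in the leaf libraries, with 572 and 614 FPKM in the earlier and the later one, followed by 393 FPKM in roots before flowering. Mature seeds had 253 FPKM, flowers 251, the library labelled roots sampled after flowering 249, buds 192 and milk grains 138, so the highest value was 4.45 times the lowest. No other short locus was as high in leaves after flowering. XLOC_007716 (chromosome 1, 32925928 to 32926057, 130 bp) ran from 14.1 FPKM in buds to 97.6 in leaves before flowering, a ratio of 6.91.

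A few loci carried most of the summed level. The 582 short loci took 0.351% to 0.704% of the summed FPKM in 7 libraries and 1.66% in milk grains. The 5 highest short loci of a library held between 49.7% of the short loci's sum in buds and 77.6% in leaves before flowering. The highest value of all was that of XLOC_042917 (chromosome 5, 15372628 to 15373075, 448 bp), with 4297 FPKM in milk grains and 1576 FPKM in mature seeds. Roots before flowering had 0.0229 FPKM of it and flowers 0.00173 FPKM, and it was listed at 0 in the other 4 libraries. This locus held 42.3% of the short loci's sum in milk grains and 46.3% in mature seeds.

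The next in level was the shortest member, XLOC_057971 (chromosome 7, 19794335 to 19794442, 108 bp), with 1925 FPKM in leaves before flowering. Flowers had 982 FPKM of it, milk grains 536, the library labelled roots sampled after flowering 505, buds 419, leaves after flowering 416 and mature seeds 336, and it was listed at 0 in roots before flowering. The other members among the 3 shortest were as uneven. XLOC_028110 (chromosome 2, 18074869 to 18074978, 110 bp) had 492 FPKM in buds, 692 in milk grains and 49.5 in mature seeds and was listed at 0 in the other 5 libraries. XLOC_057852 (chromosome 7, 15356961 to 15357078, 118 bp) had 199 FPKM in the later leaf library, 79.0 in the earlier root library, 28.5 in buds, 14.3 in flowers and 13.4 in the library labelled roots sampled after flowering, and was listed at 0 in the other 3. These loci are hardly longer than the 100 sequencing cycles of a read. In XLOC_028110 and XLOC_057852 a listed 0 stood beside a high value in the other stage of the same organ. In XLOC_057971 the listed 0 stood beside 505 FPKM in the library labelled roots sampled after flowering, which resembled leaves.

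XLOC_034668 (chromosome 3, 10134114 to 10134280, 167 bp) and XLOC_021745 (chromosome 12, 13051679 to 13051856, 178 bp) were also among the 5 highest and had nearly the same profile. In milk grains XLOC_034668 had 793 and XLOC_021745 778 FPKM, and in mature seeds 89.6 and 98.4 FPKM. Buds had 193 and 201 FPKM of the same pair and flowers 133 and 119 FPKM. In the earlier leaf library they had 57.2 and 67.5 FPKM and in the later one 57.4 and 53.5 FPKM. Roots before flowering had 62.7 and 90.8 FPKM, and the library labelled roots sampled after flowering had the least, 13.7 and 14.9 FPKM. The ratio of the first to the second stayed between 0.691 and 1.12 over the 8 libraries. Whether reads were shared between these positions was not tested.

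Pairs that were alike in every library also occurred. Within 1%, 10 short loci (1.72%) matched another locus of the table in each library, listed zeros included, which in each case was a short locus too, against 4 of the 12912 longer loci (0.0310%). For 6 of the 10 this rested on 5 or more libraries above 0. The other 4 were above 0 in 2 libraries and listed at 0 in the rest. The lengths were equal within a pair for 80% of the 10, and the exception, XLOC_016856 (397 bp) and XLOC_035054 (307 bp), was one of the pairs above 0 in 2 libraries, with highest values of 5.10 and 5.15 FPKM. XLOC_059883 and XLOC_059884 (chromosome 8, 21474563 to 21474764 and 21487565 to 21487766, 202 bp each) both had 65.4 FPKM in roots before flowering, 0.957 in mature seeds, 0.508 in flowers, 0.137 in buds and 0.0186 in the library labelled roots sampled after flowering. XLOC_011624 (chromosome 10, 22447468 to 22447771) and XLOC_025905 (chromosome 2, 14287885 to 14288188) are both 304 bp long and both had 10.4 FPKM in the earlier and 6.20 FPKM in the later leaf library, and 0.141 FPKM in roots before flowering. The level of each member of such a pair is uncertain.

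A locus was counted as enriched in an organ where the better of its libraries reached 10 FPKM and, after adding 1 FPKM throughout, lay 5-fold or more above each library of another organ. A value listed at 0 was taken as 0, though it can be a failed estimate. This held for 67 short loci (11.5%, interval 9.17 to 14.4%), against 12.1% of the longer loci and 10.1% of all loci, so the share was close to the background. Of the loci that reached 10 FPKM at all, 67 of 114 short loci (58.8%) and 20.9% of the longer loci were enriched; a locus that reaches this level in 1 organ alone enters by that organ. The seed had the most, with 32 short loci (5.50%, 3.92 to 7.66%), against 3.10% of the longer loci and 2.95% of all loci. The root had 17 (2.92%, longer loci 3.996%, all loci 2.94%), the flower 13 (2.23%, longer loci 3.25%, all loci 2.47%) and the leaf 5 (0.859%, longer loci 1.75%, all loci 1.74%). Without the loci below 200 bp the seed count was 22 of 507 (4.34%). With a minimum of 5 in place of 10 FPKM the flower count was 34 (5.84%) against 3.93% of the longer loci, so its order against them turned. With the library labelled roots sampled after flowering counted as root, 0 short loci and 0.124% of the longer loci were leaf-enriched.

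The seed loci with the highest ratio both lay on chromosome 5. Besides XLOC_042917, XLOC_045291 (15502492 to 15502954, 463 bp) had 50.9 FPKM in milk grains and 11.2 FPKM in mature seeds and was listed at 0 in the other 6 libraries. The gap between these loci was 129416 bp. Their nearest neighbours in the table, XLOC_042919 (571 bp, 25451 bp away) and XLOC_045292 (652 bp, 9557 bp away), were seed loci as well. XLOC_042919 had 6402 FPKM in mature seeds and was listed at 0 in milk grains. XLOC_045292 had 1716 FPKM in milk grains and 793 FPKM in mature seeds.

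The flower loci with the highest ratio, of 13, were XLOC_024655 and XLOC_040714. XLOC_024655 (chromosome 2, 34108930 to 34109314, 385 bp) had 351 FPKM in buds and 534 FPKM in flowers, and 0.0617 to 1.31 FPKM in the other 6 libraries. Its neighbour XLOC_024654, 1702 bp away, was not a flower locus, with 5.71 to 15.2 FPKM over the 8 libraries. XLOC_040714 (chromosome 4, 34104677 to 34104884, 208 bp) had 326 FPKM in buds and 312 FPKM in flowers, at most 0.584 FPKM elsewhere, and was listed at 0 in roots before flowering and mature seeds. Its neighbour XLOC_040715 (524 bp), 1753 bp away, had 656 and 502 FPKM in the same libraries and at most 1.67 FPKM elsewhere.

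The root loci with the highest ratio, of 17, were XLOC_005905 and XLOC_047217. XLOC_005905 (chromosome 1, 33181339 to 33181729, 391 bp) had 351 FPKM in roots before flowering and at most 0.0662 FPKM in the other 7 libraries. Its neighbour XLOC_002565, 771 bp away, had 1.11 FPKM in roots before flowering and its highest value, 7.27 FPKM, in leaves before flowering. XLOC_047217 (chromosome 6, 344156 to 344507, 352 bp) had 42.0 FPKM there, 0.213 FPKM in buds and 0.0326 FPKM in flowers, and was listed at 0 in the other 5 libraries. Its neighbour XLOC_049631, 2476 bp away, had 10.9 FPKM in roots before flowering and at most 0.1001 FPKM elsewhere.

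The leaf loci with the highest ratio, of 5, were XLOC_012195 and XLOC_007511. XLOC_012195 (chromosome 10, 22608822 to 22609125, 304 bp) had 54.0 FPKM in the earlier leaf library, 144 in the later one and 100.4 in the library labelled roots sampled after flowering, and at most 0.540 FPKM in the other 5. It lay 119 bp from XLOC_009802, which had 270, 676 and 585 FPKM in the same 3 libraries. XLOC_007511 (chromosome 1, 27886223 to 27886712, 490 bp) had 8.91, 22.6 and 31.7 FPKM in these libraries, and its neighbour XLOC_002138, 154 bp away, had 37.96, 83.1 and 114 FPKM.

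**Figure D4:**
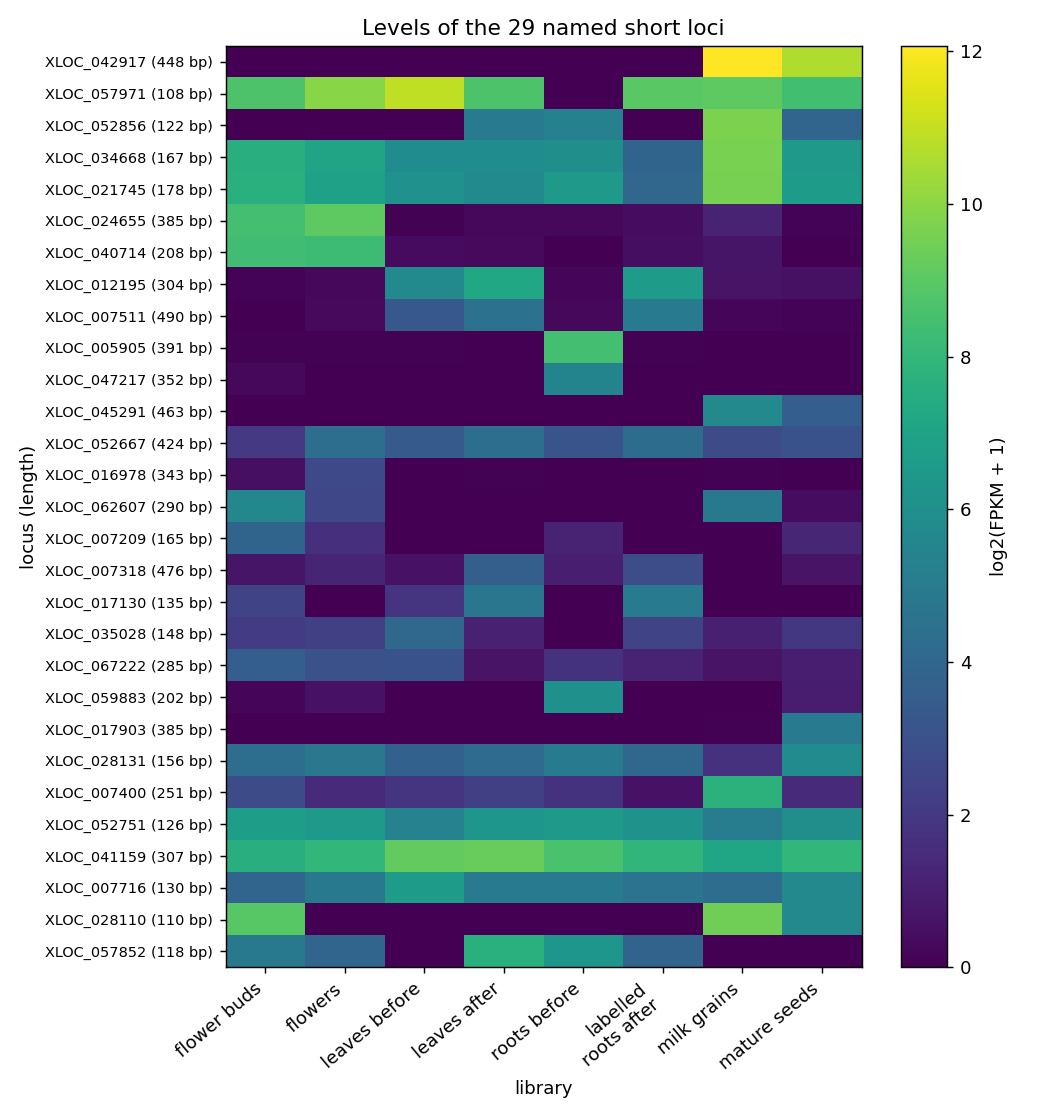
Level of the 29 named short loci in the 8 libraries, as log2(FPKM + 1), with the length of each locus beside its identifier. XLOC_042917 is bright in the seed libraries alone, and the 3 steady loci (XLOC_052751, XLOC_041159, XLOC_007716) are lit in every library.

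Stage differences were counted where log2((FPKM + 1)/(FPKM + 1)) of the later to the earlier library was at least 2 in size, a 4-fold difference, provided that 5 FPKM was reached in one of them. Between 51 and 90 of the 582 short loci passed that level in a comparison (8.76% to 15.5%), against 47.3% to 54.8% of the longer loci. A weak locus passes it by being high in 1 of the libraries compared, so shares of the loci that passed are no sign of a difference from the longer loci. A share of all members cannot exceed the share that passed, so a lower one is no sign of a difference either. Both kinds of share are given. All log2 values below are differences on this scale, on which low loci change less than their plain ratio.

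Flowers and buds were close. Flowers exceeded buds 4-fold at 2 short loci and fell short of them at 4, where 0.730% and 0.436% of the tested loci of the table did. Both directions together held 1.03% of all short loci (interval 0.473 to 2.23%) and 7.23% of the 83 that passed. The longer loci gave 0.697% of all and 1.27% of those that passed. Over the table, either direction held 0.600% of all loci and 1.17% of the tested loci. Without the loci below 200 bp, 2 were higher and 1 lower. XLOC_052667 (chromosome 6, 21857529 to 21857952, 424 bp) went from 2.95 FPKM in buds to 19.6 FPKM in flowers, a log2 difference of 2.38, and 5.66 to 19.6 FPKM in the other libraries. XLOC_016978 (chromosome 11, 18232659 to 18233001, 343 bp) had 0.409 and 5.44 FPKM, a difference of 2.19, and at most 0.0673 FPKM elsewhere.

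Among the lower loci, XLOC_062607 (chromosome 8, 753561 to 753850, 290 bp) went from 46.4 FPKM in buds to 5.03 FPKM in flowers, a log2 difference of -2.98, and 28.0 FPKM in milk grains against 0.306 in mature seeds. It was thus high in the earlier library of both the flower and the seed. XLOC_007209 (chromosome 1, 17118266 to 17118430, 165 bp) had 13.98 and 2.18 FPKM, a difference of -2.24. The remaining lower loci, 2 in number, were listed at 0 in flowers.

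The later leaf library was 4-fold or more above the earlier one at 10 short loci and below it at 3, where 3.88% and 2.50% of the tested loci of the table were. That is 2.23% of all short loci (1.31 to 3.78%), against 3.45% of the longer loci and 3.02% of all loci. Of the 51 that passed it is 25.5%, against 7.29% of the longer loci and 6.38% over the table. Of the 10 higher loci, 6 were below 200 bp and 4 were listed at 0 before flowering, and without the loci below 200 bp 4 were higher and 1 lower. XLOC_007318 (chromosome 1, 21413977 to 21414452, 476 bp) had 0.510 FPKM before and 11.6 after flowering, a log2 difference of 3.07. XLOC_017130 (chromosome 11, 23286618 to 23286752, 135 bp) had 2.48 and 25.6 FPKM, a difference of 2.93, and 30.8 FPKM in the library labelled roots sampled after flowering.

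Of the lower loci, XLOC_035028 (chromosome 3, 24065932 to 24066079, 148 bp) had 15.6 FPKM before and 1.16 after flowering, a log2 difference of -2.95. The smallest values above 0 at this length are of the size of its later value. XLOC_067222 (chromosome 9, 14951008 to 14951292, 285 bp) had 7.11 and 0.544 FPKM, a difference of -2.39, with 11.3 FPKM in buds.

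In the pair labelled roots, 15 short loci were 4-fold or more higher and 31 lower in the later library, where 14.1% and 16.0% of the tested loci of the table were. That is 7.90% of all short loci (5.98 to 10.4%), against 18.8% of the longer loci and 15.7% of all loci. Of the 72 that passed it is 63.9%, against 34.3% of the longer loci and 30.0% over the table. A leaf library reached 5 FPKM for 14 of the 15 higher loci (93.3%). This was close to the background, 96.7% of the 1011 higher longer loci and 97.1% of the 2291 higher loci of the table. No other organ reached 5 FPKM for 23 of the 31 lower loci (74.2%), against 40.4% of the 1415 lower longer loci. Of all loci that passed, this held for 26 of 72 short loci (36.1%) and for 9.81% of the longer loci. A lower locus passes by the earlier root library, so these shares are no sign of a difference from the longer loci. The named higher loci are the leaf loci XLOC_012195 and XLOC_007511, with 0.131 and 0.210 FPKM in roots before flowering and log2 differences of 6.49 and 4.76. The named lower loci are XLOC_005905, with a difference of -8.37, and XLOC_059883, with -6.03, whose values XLOC_059884 matched in every library. The later library has a leaf-like profile, so change of roots and difference between organs cannot be told apart.

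Milk grains and mature seeds differed 4-fold at 68 short loci, 20 of them higher in mature seeds and 48 higher in milk grains. Both directions together held 11.7% of all short loci (9.32 to 14.5%), against 14.1% of the longer loci and 12.4% of all loci. This total was near the background. The background over the tested loci of the table was 26.0%, with 18.6% higher and 7.38% lower. As shares of all members, 3.44% of short loci were higher and 8.25% lower, where the longer loci gave 10.3% higher and 3.88% lower. The order of the directions was thus opposite: more short loci were higher in the milk grain and more long ones in the mature seed. Of the 90 that passed, 22.2% were higher and 53.3% lower, against 20.5% and 7.74% of the longer loci. The median log2 difference over all 582 short loci was 0, against 0.29 for the longer loci and 0.27 for all loci. Over the 90 that passed it was -2.07, and over all tested loci of the table it was 0.43.

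The size of this result depended on the shortest members. Below 200 bp, 23 of 75 loci were lower in mature seeds (30.7%) and 5 higher. From 200 bp upwards, 25 of 507 were lower (4.93%, 3.36 to 7.18%) and 15 higher (2.96%, 1.80 to 4.82%). The share of lower loci was within counting error of the 3.88% of longer loci. The share of higher loci was under their 10.3%, but only 50 of the 507 passed 5 FPKM, against 50.1% of the longer loci. Of those 50, 30% were higher and 50% lower, against 20.5% and 7.74% of the longer loci that passed. After median-of-ratios scaling 20 short loci were higher and 52 lower, and the median over all tested loci moved from 0.43 to 0.09. No other organ reached 5 FPKM for 29 of the 48 lower loci (60.4%), and a flower library did for 16 (33.3%). Among the 501 lower longer loci these were 39.7% and 44.7%. The 48 had medians of 24.9 FPKM in milk grains and 1.00 FPKM in mature seeds. No other organ reached 5 FPKM for 13 of the 20 higher loci (65.0%), against 15.2% of the 1324 higher longer loci. The 20 had medians of 0.0417 FPKM in milk grains and 9.83 FPKM in mature seeds. Of all loci that passed, no other organ reached 5 FPKM for 50 of 90 short loci (55.6%) and for 10.6% of the longer loci. The shares of the lower and higher short loci lay near that 55.6%. They are thus no sign of a trait of the loci that differed.

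The locus furthest towards the milk grain was XLOC_007400 (chromosome 1, 24615785 to 24616035, 251 bp), with 213 FPKM in milk grains, 1.78 in mature seeds and a log2 difference of -6.27. It had 0.512 to 5.66 FPKM in the other 6 libraries. XLOC_052856 (chromosome 6, 28198721 to 28198842, 122 bp) had 836 and 14.2 FPKM, a difference of -5.78. It starts on the base after the end of XLOC_052855, which was listed at 0 in both seed libraries. Towards the mature seed, XLOC_017903 (chromosome 12, 7935902 to 7936286, 385 bp) had 29.0 FPKM in mature seeds after 0.0540 FPKM in milk grains, a difference of 4.83, and 0.0131 FPKM or a listed 0 elsewhere. XLOC_028131 (chromosome 2, 18695487 to 18695642, 156 bp) had 2.31 and 55.3 FPKM, a difference of 4.09, and 12.4 to 30.7 FPKM in the other 6 libraries. The first was seen in the mature seed alone, and the second was low in milk grains alone.

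**Figure D5:**
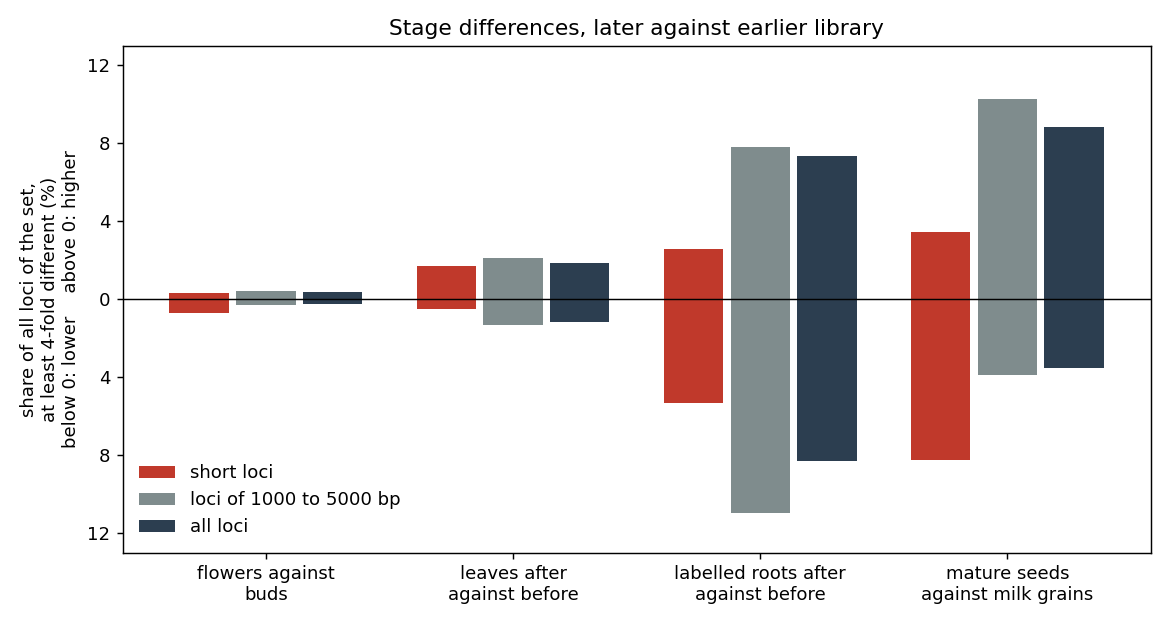
Share of all loci of a set (%) that were at least 4-fold higher (bars above 0) or lower (bars below 0) in the later library, for short loci (red), longer loci (grey) and all loci (dark blue). In seeds 8.25% of short loci were lower and 3.44% higher, and 3.88% of longer loci were lower and 10.3% higher. The level of 5 FPKM in a seed library was passed by 15.5% of short and 50.1% of longer loci, which bounds these shares.

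By position, short loci were on all 12 chromosomes and on the unplaced sequences. They made up 4.28% of the loci with a position of their own on chromosome 12, 3.70% on chromosome 11, 3.30% on chromosome 6 and 3.24% on chromosome 4, and between 2.20% on chromosome 5 and 2.92% on chromosome 8 on the remaining ones. The distance to the nearest other span was alike, with a median of 1630 bp for short and 1610 bp for longer loci.

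Short loci that lay close to another locus often shared its leading organ. Within 200 bp, 70 of 98 short loci (71.4%, interval 61.8 to 79.4%) had their highest value in the same organ as the neighbour, against 34.1% (31.6 to 36.7%) of the longer loci at that distance. Above 200 and up to 1000 bp this was so for 65 of 135 (48.1%, 39.9 to 56.5%) and for 30.9%. Above 1000 and up to 5000 bp it was so for 82 of 211 (38.9%, 32.5 to 45.6%) and for 33.5%, and above 5000 and up to 10000 bp for 36 of 76 (47.4%, 36.5 to 58.4%) and for 32.4%. Beyond 10000 bp it was so for 21 of 60 (35.0%, 24.2 to 47.6%) and for 29.1%. The share was thus highest within 200 bp and did not fall steadily beyond that. Loci that were each other's nearest neighbour were each counted, so a pair can enter from both sides. The intervals take loci as independent and can therefore be too narrow. The median correlation of a short locus with its neighbour over the 8 libraries, on the log2 scale, was 0.86 within 200 bp, 0.36 from there up to 1000 bp, 0.18 up to 5000 bp, 0.35 up to 10000 bp and -0.01 beyond 10000 bp; both loci share libraries and depth, and many of these values are low. Where both loci reached 5 FPKM within 1000 bp, 18 of 49 (36.7%, 24.7 to 50.7%) shared the organ, against 29.6% of the longer loci, so the sharing was seen mainly where the short locus or its neighbour was weak. Strand was not recorded, so for adjoining loci the reads of either strand cannot be told apart. Among 39 pairs of short loci that followed each other within 5000 bp, 32 (82.1%, 67.3 to 91.0%) shared the leading organ, against 1357 of 4097 such pairs of longer loci (33.1%). Some of these pairs share a member or repeat neighbours counted above, so they are not separate evidence. The leading organ was the flower for 40.9% of the short and 29.1% of the longer loci, and the seed for 27.7% of either.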

How the data were processed

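Per the labels' protocols, poly(A) RNA was read from both ends for 100 cycles, without strand information. The authors deposited 1 FPKM value per locus and library. The submitters' processing notes list TopHat, Cufflinks and Cuffdiff. Their settings and the rule for writing a 0 were not given in the sources used. How FPKM was corrected for fragments longer than a short locus is likewise not given, and this bears on every level below about 200 bp. Read depth is unknown.

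From this table, members were selected by position and length, and shares, medians, ratios and distances were computed with pandas 2.3.3, numpy 2.4.6 and scipy 1.17.1. Shares have 95% Wilson intervals and medians 95% binomial intervals, over loci. With 1 library per group no test was run. The rules were checked on simulated tables. Named loci were the 5 highest, the 2 most enriched per organ, the 2 furthest in each direction per stage comparison (above 0 in both libraries), the 3 steadiest and the 3 shortest, 29 in all; loci of equal value, their partners and neighbours were named after their values were seen. Members, rules and lists were chosen with earlier results of these data known. The RefSeq gene table at hand follows another assembly, and no sequence was read.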

Additional observations from a re-analysis of the deposited data

Results flagged for a closer look

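At 4 short loci the later stage differed 4-fold from the earlier one upwards in leaves and downwards in the pair labelled roots, or the reverse. That is 0.687% of the short loci (95% Wilson interval 0.268 to 1.75%), against 0.527% of the longer loci and 0.404% of all loci, so the share was within counting error of the background. With 1 library per group this contrast was not tested, and the library labelled roots sampled after flowering has a leaf-like profile. XLOC_052856 (122 bp) was listed at 0 in leaves before flowering and had 31.6 FPKM after it, and had 38.8 FPKM in roots before flowering and a listed 0 in the later library. XLOC_057852 (118 bp) was listed at 0 and had 199 FPKM in leaves, and had 79.0 and 13.4 FPKM in the pair labelled roots. XLOC_057971 (108 bp) had 1925 and 416 FPKM in leaves, and a listed 0 and 505 FPKM in the pair labelled roots. XLOC_062462 (242 bp) had 0.578 and 8.85 FPKM in leaves, and 54.1 and 6.45 FPKM in the pair labelled roots. The first 3 are shorter than 150 bp, where the smallest values above 0 exceed 1 FPKM.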

How the results depend on the processing

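Of 257 recomputed values, 184 stayed within the interval of the reported one. Settings changed 1 at a time; the settings without short loci below 200 bp or within 1000 bp of another span were added after the data were seen. Values are for short loci. The median highest value was 2.999 FPKM below 300 bp, 2.30 FPKM without loci below 200 bp, and 0.643 FPKM for the mean over libraries. The share found in all 8 libraries was 6.95% below 300 bp, 2.17% without loci below 200 bp, 17.4% (101 loci) at a limit of 0.1 FPKM and 1.37% (8 loci) at 5 FPKM. By highest FPKM from the lowest to the highest range it was 0%, 0%, 8.13%, 18.2% and 28.6%. The share in exactly 1 library was 40.9% below 300 bp, 8.25% (48 loci) at 0.1 FPKM and 18.4% (107 loci) at 5 FPKM, and 70.8%, 39.3%, 23.6%, 20.5% and 4.76% by highest FPKM. Each of these kept its side of the longer loci except where both sets were at 0%. Organ enrichment was 7.73% (45 loci, longer loci 7.63%) at a fold of 10 and 17.5% (102 loci, longer loci 14.2%) at a minimum of 5 FPKM, so its order against the longer loci turned. It also turned under other settings, such as 12.7% against 12.1% without short loci within 1000 bp of another span. The share of tested loci higher in mature seeds turned as well, with 26.7% against 36.5% at a fold of 2. Of the 257 values, 24 turned their order against the longer loci.

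Shares of tested loci at least 4-fold different are given in the order flowers, leaves, pair labelled roots, seeds, and seeds lower. They were 2.41%, 7.84%, 27.8%, 34.4% and 27.8% (2, 4, 20, 31 and 25 loci) with a pseudocount of 5, and 2.10%, 8.44%, 25.8%, 33.3% and 22.5% (7, 13, 56, 74 and 50 loci) with a minimum of 1 FPKM. With that minimum the roots share fell below the 26.2% of the longer loci. At a fold of 2 they were 36.1%, 49.02%, 79.2% and 87.8% (30, 25, 57 and 79 loci), and at a fold of 8 2.41%, 7.84%, 41.7%, 44.4% and 33.3% (2, 4, 30, 40 and 30 loci). A minimum of 20 FPKM gave 79.3% for roots (23 loci) and 67.6% for seeds lower (25 loci). The cause of these moves was not tested. The minimum changes which loci pass, and the fold changes which of those are counted as different. Among other results, 30 values left their interval. No paired analysis was possible because each group held 1 library.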
